A study of Homo sapiens with 6 samples.

Results

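The genes described here were 42 genes of protein folding in the endoplasmic reticulum (ER) and of the unfolded protein response, chosen by a list of gene symbols. The list was chosen with earlier results of these data known, so a share of the 42 above that of all genes may partly come from this choice. All 42 listed symbols were found among the 58884 genes of the deposited table, and all 42 reached 10 or more estimated counts in at least 3 of the 6 libraries, as did 15296 genes in all. They comprised 5 stress sensors and transcription factors, 14 chaperones and cochaperones, 8 disulfide and proline folding enzymes, 12 genes of ER-associated degradation, and 3 genes of translocation and vesicle export. Gene expression had been measured by RNA-seq in a human immortalized ventricular cardiomyocyte line, in 3 libraries treated with negative control siRNA (NC) and 3 treated with siRNA against CIRBP (SiCIRBP). The labels call the line T0519, while the text of the study names AC16 for this experiment. The labels name no other treatment, and all libraries came from 1 line, so that separate transfections rather than separate people are the most that the replicates can be. The sources used here do not say whether the libraries of a group came from separate cultures, so p-values measure the spread between these libraries only. The study's own test used 4 of the libraries, NC_2, NC_3, SiCIRBP_1 and SiCIRBP_3, and the values below are given over these 4 and over all 6. The study left out NC_1 and SiCIRBP_2 as the most discrepant by correlation and principal component analysis of these same data. Leaving out libraries by their values can narrow the spread within groups, so p-values over the 4 libraries may be too small.

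Proteins that are secreted or placed in membranes fold in the ER with the help of chaperones, oxidoreductases and glycan-reading enzymes, and those that fail are pulled back into the cytosol and degraded. When unfolded proteins build up, the sensors IRE1 (gene ERN1), PERK (gene EIF2AK3) and ATF6 are switched on. IRE1 splices the mRNA of XBP1 into the form that encodes an active transcription factor, PERK slows translation and raises stress factors such as DDIT3, and ATF6 is cut free in the Golgi. XBP1 and ATF6 then raise chaperone and degradation genes through ER stress elements in their promoters. In heart muscle the response is known to be engaged by ischemia and by pressure overload.

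Promoter windows are shown first because they mark which of these genes carry the element that links them to ATF6 and XBP1. RefSeq promoters (GRCh38.p14, 250 bases before to 50 bases after the start) were matched for 37 of the 42 genes. PDIA3, FKBP14, DERL1, SEC24D and DERL3 were not matched. The ER stress element was searched on both strands as CCAAT, then any 9 bases, then CCACG, and the ER stress element II as ATTGG, then any 1 base, then CCACG. In the lines that follow, each sequence is written 5′ to 3′ on the strand of the gene and capitals mark the match, which reads in reverse complement where the match lay on the other strand. The genes were picked as standard readouts of the response (HSPA5, CALR, HSP90B1) or as genes that changed over the 4 libraries (XBP1, ERO1B, CRELD2, SDF2L1, HERPUD1).
HSPA5, chr9:125241366-125241434: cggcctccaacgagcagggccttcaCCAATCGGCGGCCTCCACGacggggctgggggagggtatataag
CALR, chr19:12938359-12938427: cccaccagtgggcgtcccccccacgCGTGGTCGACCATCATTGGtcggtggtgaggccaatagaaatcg
HSP90B1, chr12:103930191-103930259: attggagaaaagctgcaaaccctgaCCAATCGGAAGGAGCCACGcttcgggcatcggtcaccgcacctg
XBP1, chr22:28800578-28800646: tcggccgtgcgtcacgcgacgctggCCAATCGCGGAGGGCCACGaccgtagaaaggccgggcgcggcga
ERO1B, chr1:236282158-236282208: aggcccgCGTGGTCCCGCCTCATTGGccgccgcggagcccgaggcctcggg
CRELD2, chr22:49918529-49918597: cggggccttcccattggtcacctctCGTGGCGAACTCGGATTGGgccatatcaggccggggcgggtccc
SDF2L1, chr22:21642089-21642149: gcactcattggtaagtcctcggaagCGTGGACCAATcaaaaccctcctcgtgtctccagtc
HERPUD1, chr16:56932000-56932060: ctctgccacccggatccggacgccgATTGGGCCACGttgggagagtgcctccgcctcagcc

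The ER stress element was found in 8 of the 37 genes (21.6%: CALR, CANX, CRELD2, ERO1B, HSP90B1, HSPA5, PDIA6 and XBP1), against 0.0916% of all 27305 genes with a promoter. The ER stress element II was found in 3 (8.11%: HERPUD1, HYOU1 and SDF2L1), against 0.0696% of all genes. The octamer TGACGTGG was found in DNAJC10 and HYOU1 (5.41%), against 0.927% of all genes, and in HYOU1 it overlapped the ER stress element II. The core CCACG, which is also part of the 3 longer motifs, was found in 26 of the 37 genes (70.3%) and in 42.1% of all genes. The 42 were listed as genes of folding and of this response, so a share above that of all genes was partly built into the list. A match describes the letters of these windows and does not show that a factor was bound.

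CIRBP itself, the cold-inducible RNA-binding protein that was targeted, lay at 86.4, 85.8 and 91.0 CPM (counts scaled to a common library size) in NC_1, NC_2 and NC_3, and at 54.8, 24.3 and 46.3 CPM in SiCIRBP_1, SiCIRBP_2 and SiCIRBP_3. All 3 SiCIRBP libraries were below all 3 NC libraries, and over the 4 libraries CIRBP fell by 0.81 on the log2 scale (SE 0.11, adjusted p = 0.00828, edgeR). Library totals were 25726259 to 29919566 estimated counts. SiCIRBP_2 stood apart from the rest: it took the far end of the first principal component, which held 58.1% of the variance. In it 16 of 16 interferon-stimulated genes were higher than in SiCIRBP_1 and SiCIRBP_3, as were 6063 of all 15157 genes compared. The 16 summed to 5925 CPM in SiCIRBP_2, against 309 to 1112 CPM in the other 5 libraries. Of 14 cardiomyocyte markers, 3 (ACTN2, NKX2-5 and GATA4) were above 1 TPM (a level scaled by gene length and by library) in every library and 10 had under 10 counts in every library, among them TNNT2, MYH6, MYH7 and TTN. The summed cardiomyocyte markers did not overlap between the groups, at 72.7 to 89.6 TPM in NC and 41.0 to 61.1 TPM in SiCIRBP. Of 9 fibroblast markers, 7 were above 1 TPM in every library, LUM had no count, and the sum was 3860 to 4117 TPM in NC and 3749 to 5317 TPM in SiCIRBP. The 4 smooth muscle markers summed to 327 to 368 TPM in NC and 147 to 1254 TPM in SiCIRBP. The 5 endothelial markers summed to 12.6 to 15.7 and 9.10 to 14.6 TPM. The summed 4 leukocyte markers did not overlap between the groups either, at 9.21 to 10.7 TPM in NC and 11.3 to 13.2 TPM in SiCIRBP, with PTPRC and LYZ under 10 counts in every library. Among all single genes tested, 16.2% were higher and 16.6% lower in SiCIRBP without overlap. The part of these marker levels in the results below was not tested.

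Over the 4 libraries, the 42 genes split evenly: 6 rose (CRELD2, P4HB, PPIB, SDF2L1, SEC61A1 and SEC61B) and 6 fell (CREB3L2, ERO1B, HERPUD1, SEC24D, SEL1L and XBP1), at an adjusted p under 0.05 in edgeR's quasi-likelihood test. Each share was 14.3%, against 9.62% of all 15421 genes tested that were higher and 9.76% that were lower. Among the chaperones and folding enzymes, SDF2L1, CRELD2, P4HB and PPIB rose by 0.31 to 0.67 on the log2 scale, and ERO1B fell. The transcription factors XBP1 and CREB3L2 and the degradation genes HERPUD1 and SEL1L fell by 0.34 to 0.80. These were few of each role: 2 of 14 chaperones and 2 of 8 folding enzymes rose, and 2 of 12 degradation genes fell. Medians by role were -0.05 for chaperones, 0.08 for folding enzymes, 0.01 for degradation genes and -0.37 for sensors and factors. The most used readout of ER stress, HSPA5, which encodes the chaperone BiP, did not pass (log2 fold change -0.03, SE 0.14, adjusted p = 0.885, edgeR). None of the 42 passed with a change of at least 2-fold, which 3.62% of all genes did, although ERO1B came to the margin at -1.0. The median log2 fold change was -0.05 over the 42 genes, 19 of which were positive, and -0.00 over all genes. As these are bulk samples, fewer cells of a type and less RNA per cell cannot be told apart.

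**Figure D1:**
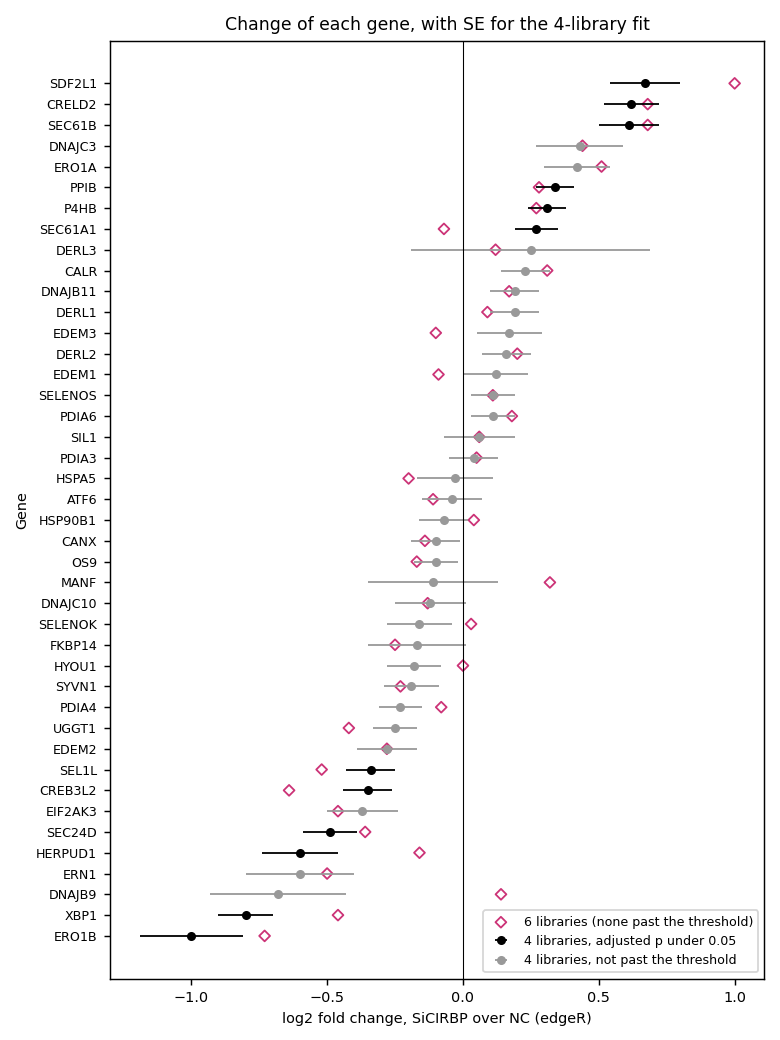
Log2 fold change of SiCIRBP over NC for each of the 42 genes in edgeR, with the 4-library value as a circle (black where the adjusted p was under 0.05, bars are the SE) and the 6-library value as an open diamond. Circles run from -1.0 for ERO1B to 0.67 for SDF2L1, and the diamonds of DNAJB9, EDEM1, EDEM3, HSP90B1, MANF, SEC61A1 and SELENOK lie on the other side of 0 from their circles.

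Over all 6 libraries no gene of the 42 passed in edgeR, and neither did any of the 15217 genes tested (0%). At an unadjusted p under 0.05, 8 of the 42 were higher (19.0%, against 12.1% of all genes) and 3 were lower (7.14%, against 11.6%). DESeq2 over the same 6 libraries called 4 higher (CRELD2, ERO1A, SDF2L1 and SEC61B), which was 9.52% of the 42 against 4.91% of all genes. It called 0 lower, against 5.09%. Limma voom weighted each library by its spread in these same data, from 0.147 for SiCIRBP_2 to 5.57 for NC_2, so SiCIRBP_2 counted little. With these weights 8 were higher (19.0%, against 13.1%) and 5 were lower (11.9%, against 13.2%). Counting only genes whose 3 SiCIRBP libraries all lay on one side of the 3 NC libraries, 12 of the 42 were higher (28.6%, against 16.2% of all genes) and 7 were lower (16.7%, against 16.6%). The 12 were CALR, CRELD2, DERL2, DNAJB11, DNAJC3, ERO1A, P4HB, PDIA6, PPIB, SDF2L1, SEC61B and SELENOS, and the 7 were CREB3L2, EDEM2, EIF2AK3, ERO1B, SEC24D, SEL1L and UGGT1. For each of these the exact two-sided permutation p was 0.1, the smallest that 3 against 3 libraries can give.

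The 4-library counts changed with each library left out. Each of these fits has a single library in 1 group, so its spread comes from the other group alone and the counts are a description only. Without NC_2, 0 of the 42 were higher, against 0.428% of all genes, and 1 (XBP1) was lower, against 0.613%. Without NC_3 there were 0 in either direction, and few genes passed at all (0.158% higher and 0.246% lower). Without SiCIRBP_1, 14 were higher (33.3%, against 21.2% of all genes) and 13 lower (31.0%, against 23.1%). Without SiCIRBP_3, 7 were higher (16.7%, against 19.1%) and 18 lower (42.9%, against 21.1%).

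**Figure D2:**
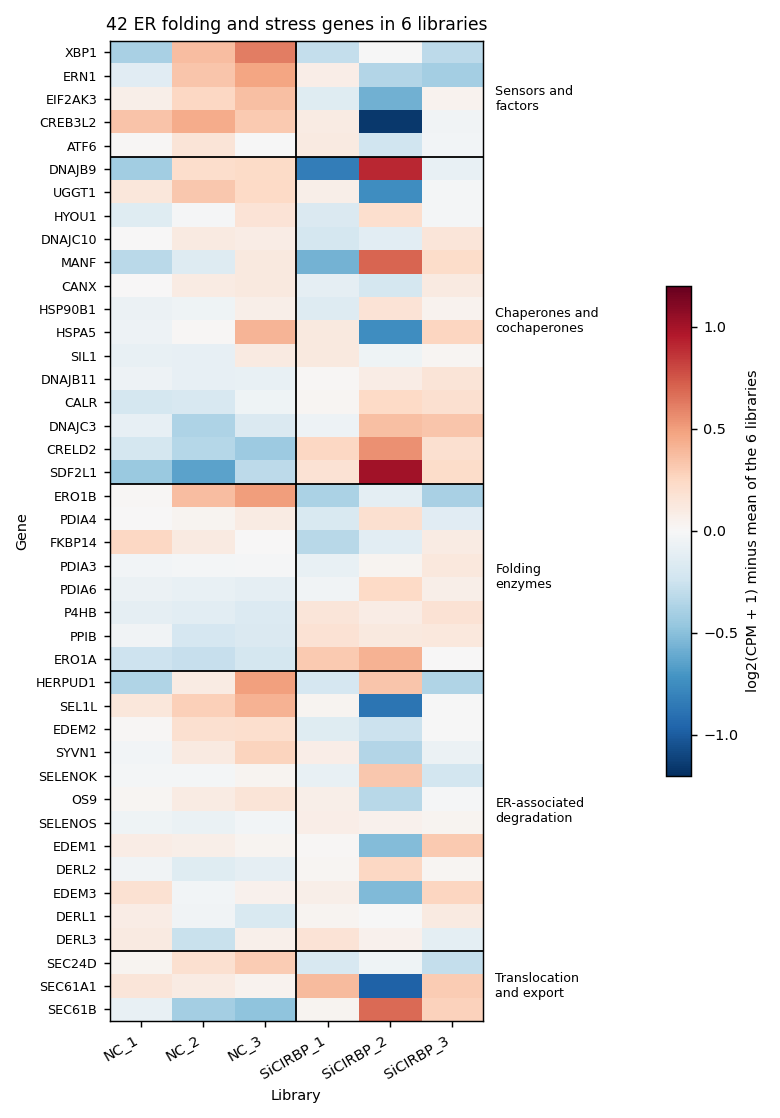
Log2(CPM + 1) of the 42 genes in each of the 6 libraries, shown as the difference from the mean of the 6, with genes grouped by role and ordered within a role by their 4-library change. In SiCIRBP_2 the darkest cells have both signs, with SDF2L1, DNAJB9, MANF and SEC61B high and CREB3L2, SEC61A1, SEL1L, UGGT1 and HSPA5 low.

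Among the sensors and transcription factors, none of 5 rose and 2 fell, XBP1 and CREB3L2, and the median log2 fold change over the 4 libraries was -0.37. Counts by role, here and below, are of few genes. They are to be read against 9.62% of all genes that were higher and 9.76% that were lower. XBP1 (chr22:28794555-28800597, minus strand, GRCh38) was at 97.4, 166 and 197 CPM in NC_1, NC_2 and NC_3, and at 105, 128 and 103 CPM in SiCIRBP_1, SiCIRBP_2 and SiCIRBP_3. NC_1 lay below every SiCIRBP library, so the groups of 3 overlapped, and the fall of 0.80 over the 4 libraries (SE 0.10, adjusted p = 0.00726, edgeR) became -0.46 over the 6 (SE 0.24, adjusted p = 0.285). These counts are per gene, so they hold spliced and unspliced XBP1 mRNA together and do not measure its splicing. CREB3L2 (chr7:137874979-138002067, minus strand), a membrane-bound transcription factor related to ATF6 that acts on secretory genes, was at 146, 157 and 143 CPM in the NC libraries and at 123, 51.0 and 112 CPM in the SiCIRBP libraries, in the order of their numbers. The groups did not overlap, SiCIRBP_2 was lowest by far, and the 4-library fall was 0.35 (SE 0.09, adjusted p = 0.0437, edgeR).

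The 3 sensors themselves did not pass. ERN1 (IRE1) was at 8.24, 11.8 and 13.1 CPM in NC and at 9.73, 6.96 and 6.66 CPM in SiCIRBP, and the groups overlapped through NC_1 and SiCIRBP_1 (log2 fold change -0.60, SE 0.20, adjusted p = 0.0818 over the 4 libraries, edgeR). EIF2AK3 (PERK) was at 18.0, 20.5 and 22.3 CPM in NC and at 15.4, 11.1 and 17.6 CPM in SiCIRBP, without overlap (-0.37, SE 0.13, adjusted p = 0.0834, edgeR). ATF6 was at 44.2, 48.7 and 43.7 CPM in NC and at 47.2, 36.9 and 42.7 CPM in SiCIRBP, with overlapping groups (-0.04, SE 0.11, adjusted p = 0.827, edgeR).

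Of the 14 chaperones and cochaperones, 2 rose, SDF2L1 and CRELD2, none fell, and the median log2 fold change over the 4 libraries was -0.05. SDF2L1 (chr22:21642261-21644298, plus strand), an ER-resident partner of the HSP40 cochaperones of BiP, was at 40.2, 35.0 and 44.3 CPM in NC and at 62.2, 112 and 64.3 CPM in SiCIRBP. Every SiCIRBP library was above every NC library and SiCIRBP_2 was highest, with a 4-library rise of 0.67 (SE 0.13, adjusted p = 0.0185, edgeR) and a 6-library log2 fold change of 1.00 (SE 0.24, adjusted p = 0.10, edgeR). CRELD2 (chr22:49918167-49927540, plus strand), an ER-stress-inducible protein with folding activity, was at 34.2, 31.0 and 29.1 CPM in NC and at 47.2, 58.5 and 45.5 CPM in SiCIRBP. It too separated the groups fully, with a 4-library rise of 0.62 (SE 0.10, adjusted p = 0.0125, edgeR) and 0.68 over 6 libraries (SE 0.14, adjusted p = 0.0913, edgeR, and 0.00252 in DESeq2). CRELD2 shares 168 exon bases with ALG12 on the opposite strand, and the strand setting of the counting is not given in the sources used here.

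None of the most abundant chaperones passed. HSPA5 was at 790, 829 and 1092 CPM in NC and at 893, 489 and 985 CPM in SiCIRBP, so SiCIRBP_2 was the lowest library while SiCIRBP_1 and SiCIRBP_3 lay between NC_2 and NC_3. HSP90B1 (GRP94, the ER member of the HSP90 family) was at 497, 505 and 550 CPM in NC and at 471, 586 and 537 CPM in SiCIRBP, and the groups overlapped (log2 fold change -0.07, SE 0.09, adjusted p = 0.650, edgeR, and 0.04 over 6 libraries). CALR, the glycoprotein chaperone calreticulin, was at 1294, 1314 and 1447 CPM in NC and at 1524, 1771 and 1714 CPM in SiCIRBP. The CALR groups did not overlap, although it did not pass (0.23, SE 0.09, adjusted p = 0.129, edgeR).

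DNAJB9 (ERdj4, an HSP40 cochaperone that also restrains IRE1) was at 9.50, 15.2 and 15.4 CPM in NC and at 6.88, 25.2 and 12.2 CPM in SiCIRBP. Its lowest and its highest value were both SiCIRBP libraries, and the log2 fold change went from -0.68 over the 4 libraries (SE 0.25, adjusted p = 0.103, edgeR) to 0.14 over the 6. Its exons overlap PNPLA8 and THAP5 on the opposite strand by 99 and 183 bases. DNAJC3, an HSP40 cochaperone that also inhibits PERK, was at 34.3, 28.3 and 32.5 CPM in NC and at 35.2, 47.6 and 46.7 CPM in SiCIRBP, just without overlap (0.43, SE 0.16, adjusted p = 0.10, edgeR). UGGT1, which marks misfolded glycoproteins for another round of folding, was at 143, 163 and 153 CPM in NC and at 136, 77.2 and 128 CPM in SiCIRBP, also without overlap (-0.25, SE 0.08, adjusted p = 0.0763, edgeR). The other 6 chaperones, MANF, SIL1, DNAJC10, CANX, HYOU1 and DNAJB11, lay between -0.18 (HYOU1) and 0.19 (DNAJB11) over the 4 libraries and none passed.

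**Figure D3:**
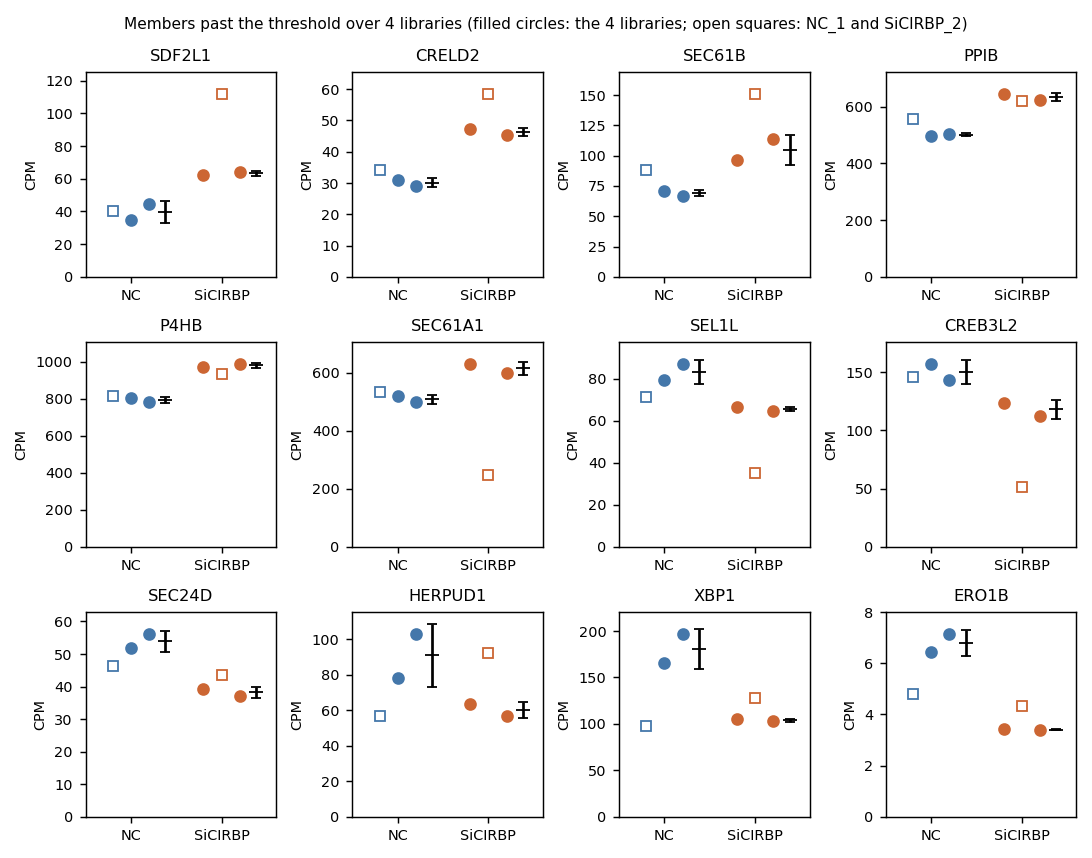
CPM of the 12 genes that passed over the 4 libraries, by library, with filled circles for the 4 libraries, open squares for NC_1 and SiCIRBP_2, and bars for the mean and SD of the 2 libraries per group. The open square of SiCIRBP_2 for SEC61A1, of NC_1 for XBP1 and both for HERPUD1 lie on the side of the other group, while those of SDF2L1, CRELD2, SEC61B, PPIB and P4HB stay with it.

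Among the 8 folding enzymes, 2 rose, P4HB and PPIB, and 1 fell, ERO1B, with a median log2 fold change of 0.08. P4HB (chr17:81843159-81860694, minus strand), a protein disulfide isomerase that is also the beta subunit of prolyl 4-hydroxylase, was at 815, 806 and 782 CPM in NC and at 972, 934 and 989 CPM in SiCIRBP (rise of 0.31, SE 0.07, adjusted p = 0.0335, edgeR). PPIB (chr15:64155812-64163205, minus strand), the ER proline isomerase cyclophilin B, was at 556, 497 and 505 CPM in NC and at 645, 621 and 623 CPM in SiCIRBP (rise of 0.34, SE 0.07, adjusted p = 0.0250, edgeR). Both separated the groups with SiCIRBP_2 close to the other SiCIRBP libraries, and both differences were small, at 1.24-fold and 1.27-fold.

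The oxidases that recharge the disulfide isomerases, ERO1A and ERO1B, lay on opposite sides. ERO1B (chr1:236215555-236281985, minus strand) was at 4.80, 6.45 and 7.15 CPM in NC and at 3.42, 4.32 and 3.38 CPM in SiCIRBP, without overlap, and it fell by 1.00 (SE 0.19, adjusted p = 0.0181, edgeR). ERO1A was at 52.7, 51.4 and 53.9 CPM in NC and at 78.1, 83.9 and 63.0 CPM in SiCIRBP, also without overlap, but it missed the threshold over the 4 libraries (0.42, SE 0.12, adjusted p = 0.0540, edgeR) and passed over the 6 in DESeq2 (adjusted p = 0.0210). The difference between the 2 genes was not tested. PDIA3, PDIA4, PDIA6 and FKBP14 lay between -0.23 (PDIA4) and 0.11 (PDIA6), and none passed.

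Of the 12 genes of ER-associated degradation, none rose and 2 fell, HERPUD1 and SEL1L, with a median log2 fold change of 0.01. HERPUD1 (chr16:56932048-56944863, plus strand), a stress-induced membrane protein of the degradation complex, was at 56.5, 78.4 and 103 CPM in NC and at 63.5, 92.3 and 56.7 CPM in SiCIRBP. NC_1 was the lowest of the 6 and SiCIRBP_2 was next to the highest, so the fall of 0.60 over the 4 libraries (SE 0.14, adjusted p = 0.0337, edgeR) became -0.16 over the 6 (SE 0.25, adjusted p = 0.710). SEL1L (chr14:81471549-81533861, minus strand), the adaptor of the ubiquitin ligase SYVN1, was at 71.5, 79.3 and 87.1 CPM in NC and at 66.4, 35.0 and 64.8 CPM in SiCIRBP, without overlap (fall of 0.34, SE 0.09, adjusted p = 0.0422, edgeR).

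The other 10 degradation genes lay between -0.28 (EDEM2, which trims mannose from glycoproteins bound for degradation) and 0.25 (DERL3, a derlin of the retrotranslocation complex). SYVN1, OS9, EDEM1, EDEM3, DERL1, DERL2, SELENOK and SELENOS lay inside this range without passing. DERL3 had the lowest level of the 42, at 0.582 to 1.13 CPM, and 2923 of its 3796 exon bases are shared with SMARCB1 on the opposite strand. SYVN1 shares 398 exon bases with FAU on its own strand, and SIL1 among the cochaperones shares 105 with MATR3 on the opposite strand, so their counts are uncertain as well.

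All 3 translocation and export genes passed over the 4 libraries, 2 higher and 1 lower, against 9.62% and 9.76% of all genes. A count of 3 genes is too small to describe translocation and export as a whole. SEC61B (chr9:99222064-99230615, plus strand), the beta subunit of the translocation channel, was at 88.2, 70.7 and 67.1 CPM in NC and at 96.5, 151 and 114 CPM in SiCIRBP, without overlap (rise of 0.61, SE 0.11, adjusted p = 0.0150, edgeR). SEC61A1 (chr3:128051641-128071683, plus strand), the pore-forming subunit of the same channel, was at 497 to 534 CPM in the 3 NC libraries, where NC_3 was lowest and NC_1 highest, and at 630, 247 and 598 CPM in SiCIRBP. The channel subunits thus parted in SiCIRBP_2, where SEC61B was the highest and SEC61A1 the lowest of the 6 libraries, and SEC61A1 went from a rise of 0.27 over the 4 libraries (SE 0.08, adjusted p = 0.0492, edgeR) to -0.07 over the 6 (SE 0.31, adjusted p = 0.899). SEC61A1 shares 344 exon bases with RUVBL1 on the opposite strand. SEC24D (chr4:118722823-118838683, minus strand), a cargo-binding subunit of the COPII vesicle coat, was at 46.4, 51.7 and 56.2 CPM in NC and at 39.4, 43.7 and 37.0 CPM in SiCIRBP, without overlap (fall of 0.49, SE 0.10, adjusted p = 0.0211, edgeR).

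SiCIRBP_2 differed from SiCIRBP_1 and SiCIRBP_3 by -1.31 (SEC61A1) to 1.36 (DNAJB9) in log2(CPM + 1) across the 42 genes, with a median of 0.00. Besides DNAJB9, it was higher for MANF, a secreted ER stress protein (difference 0.87), and for SDF2L1 (0.81), and lower for CREB3L2 (-1.19), HSPA5 (-0.94) and SEL1L (-0.89). Transcript length went with this difference: the 13 genes under 2000 bases had a median of 0.13 and 9 of them were positive, while the 17 genes of 4000 bases or more had a median of -0.19 and 11 of them were negative (Spearman's rho -0.49 across the 42 genes, which share their libraries, against -0.24 across all 15217 genes). SEC61A1, at 1871 bases, lay apart from this ordering.

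Length went with the 4-library comparison as well, which holds no SiCIRBP_2. The median log2 fold change was 0.23 for the 13 short genes and -0.17 for the 17 long ones, against 0.10 and -0.13 for short and long genes among all those tested (rho -0.37 across the 42 genes and -0.20 across all genes, as a description). The 6 genes that rose had listed lengths of 564 bases (SEC61B) to 2437 bases (P4HB), and those that fell 1794 bases (XBP1) to 7919 bases (SEL1L). With the trend against length removed from each library, edgeR over the 4 libraries called 5 of the 42 higher (CRELD2, ERO1A, P4HB, SDF2L1 and SEC61B), which was 11.9% against 8.82% of all genes. It called 4 lower (ERO1B, HERPUD1, SEC24D and XBP1), which was 9.52% against 7.76%. PPIB, SEC61A1, CREB3L2 and SEL1L no longer passed (adjusted p = 0.0795, 0.0736, 0.228 and 0.239).

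NC_1 differed from NC_2 and NC_3 most in XBP1 (-0.89), HERPUD1 (-0.66), DNAJB9 (-0.64) and ERN1 (-0.54) in log2(CPM + 1), against a median of -0.06 over the 42 genes. These 4 were chosen after their values were seen, and the same difference was -0.27 for HSPA5, -0.09 for CALR, -0.08 for HSP90B1, 0.03 for SDF2L1 and 0.18 for CRELD2. The 15 genes of the PERK branch and the integrated stress response are not among the 42. Of these 15, 14 were lower in NC_1 than in both NC_2 and NC_3, as were 21 of the 42 and 6250 of all 15157 genes compared. The median difference of the 15 was -0.58, against 0.00 over all genes. In the 4-library test 1 of these 15 rose and 7 fell, against 9.62% of all genes that were higher and 9.76% that were lower. Their median log2 fold change was -0.44, against -0.00 over all genes. Over all 6 libraries their median was -0.12, and none passed in edgeR, as none of all genes did (0%). DESeq2 called 1 of the 15 higher and 0 lower, against 4.91% and 5.09% of all genes. DDIT3, the pro-apoptotic factor CHOP, was at 18.5, 38.4 and 58.8 CPM in NC and at 17.4, 46.4 and 11.5 CPM in SiCIRBP, so both NC_1 and SiCIRBP_2 lay across from their groups. Its fall of 1.75 over the 4 libraries (SE 0.26, adjusted p = 0.0103, edgeR) became -0.62 over the 6 (adjusted p = 0.505). CEBPB (-1.05) and PPP1R15A (-0.68), which restarts translation after stress, fell over the 4 libraries with NC_1 again below NC_2 and NC_3, while ATF5 rose by 1.04 and separated all 6 libraries.

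Lists of genes that work beside the 42 differed in their counts. Of 20 other degradation genes tested, 4 rose and 3 fell (median 0.09), with VCP, the ATPase that extracts proteins from the membrane, up by 0.66, UFD1 by 0.42 and AUP1 by 0.50, and NGLY1, which strips glycans, at -0.54. Of 22 other translocon and signal peptide genes, 4 rose (SPCS3 by 0.60, SSR2 by 0.42, SRP9 by 0.37 and SEC62 by 0.40) and none fell (median 0.21). Of 21 other disulfide isomerase and proline isomerase genes, 5 rose and none fell (median 0.15), and the 4 of smallest p were the peroxiredoxin PRDX4 (0.77), the sulfhydryl oxidase QSOX1 (0.52), TXNDC12 (0.43) and TXNDC5 (0.35).

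Glycan and coat genes passed in few cases. Of 14 glycosylation and glycan trimming genes, GANAB, a glucosidase of the calnexin cycle, rose by 0.68 and DPAGT1, the first enzyme of glycan assembly, fell by 0.48 (median 0.13). Of 12 COPII coat genes, SAR1B (0.49) and SEC24C (0.33) rose and SEC24B (-0.56) fell (median 0.02), so that SEC24 paralogs took both directions. None of 12 genes on a mixed list of ATF6 processing enzymes, cofactors and other genes (median 0.08) passed over the 4 libraries. That list held ATF6B, MBTPS1, MBTPS2, NFYA, NFYB, NFYC, CREB3, CREB3L1, TRAF2, WFS1, SERP1 and BBC3. None of 16 interferon-stimulated genes (median 0.27) passed either. All these values are edgeR log2 fold changes over the 4 libraries, to be read against the 9.62% of all genes that were higher and the 9.76% that were lower. None of the genes named from these lists passed over all 6 libraries in edgeR, where none of the 15217 genes tested did (0%). In SiCIRBP_2, GANAB (295 CPM), SSR2 (154), SEC62 (47.7) and TXNDC5 (288) lay below every NC library and NGLY1 (32.9) above every one. SRP9 and SAR1B overlapped through NC_1. The groups did not overlap for VCP, UFD1, AUP1, SPCS3, PRDX4, QSOX1, TXNDC12, DPAGT1, SEC24B and SEC24C. In DESeq2 over the 6 libraries these genes passed, with adjusted p of 3.30e-04 (QSOX1) to 0.0438 (SEC24C). The other genes named from these lists did not. Shares over all genes were 16.2% higher and 16.6% lower without overlap, and 4.91% higher and 5.09% lower in DESeq2. The named genes had been picked by small p over 4 of these same 6 libraries, so these shares are no measure for them.

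Genes with a promoter element took both directions, and so did those without. Of the 11 genes with either ER stress element shown or named above, 2 rose (CRELD2 and SDF2L1) and 3 fell (ERO1B, HERPUD1 and XBP1), with a median log2 fold change of -0.07 and a range of -1.0 to 0.67. Of the 26 genes with a matched promoter and neither element, 4 rose and 2 fell, also with a median of -0.07, and the difference between these groups of genes was not tested.

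Levels per length, in TPM averaged over the 6 libraries, ranged from 1.22 (DERL3) to 1166 (CALR). CALR was followed by PPIB at 870, P4HB at 586, SEC61B at 395, PDIA3 at 381 and HSPA5 at 292 TPM. CALR, PPIB and P4HB were separate from one another over all 6 libraries, but of the 41 neighbouring pairs in the order of levels 36 overlapped. The lowest levels after DERL3 were those of ERO1B at 1.52 TPM and ERN1 at 1.94 TPM. The gene with the largest fall over the 4 libraries, ERO1B, was thus also among the least abundant, while the largest rises were in genes of middle or high level, SDF2L1 at 129 TPM, CRELD2 at 43.3 TPM and SEC61B at 395 TPM.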

How the data were processed

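Total RNA of 6 libraries was sequenced. Per the submitters' processing notes, reads were handled with fastp, HISAT and RSEM on hg38; versions and the strand setting are not given in the sources used here. The authors deposited, for each of 58884 genes, estimated counts and TPM per library with a gene length; 24 of the 42 genes had a fractional count. The authors' columns of fold changes and p-values, and a second deposited table, were not used. The labels gave each library's group and number.

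Estimated counts, as deposited, were rounded and scaled by TMM to CPM, and edgeR 4.0.16 (filterByExpr, quasi-likelihood test, Benjamini-Hochberg over all genes, threshold 0.05) in R 4.3.3 was fitted over the 4 libraries of the study's test (15421 genes) and over all 6 (15217 genes). SEs were obtained from the fold change and the F statistic, whose root is the ratio of change to SE. Levels used the deposited TPM. Depth was 25726259 to 29919566 counts per library. Differences between single libraries used log2(CPM + 1). Exact permutation tests (scipy 1.17.1) were two-sided. DESeq2 1.42.0, limma 3.58.1 (voom with sample quality weights, and log2(TPM + 1)), other size factors, other filters, a replicate block, leaving out each library and, added after seeing the data, an offset for gene length were alternatives. Coordinates and overlaps are from GENCODE 29 (GRCh38). The steps were tested on simulated data.

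The 42 genes and all gene lists were chosen with earlier results of these data known. All 42 are named; values in every library are given for the sensors ATF6, ERN1 and EIF2AK3 and for XBP1, for 6 standard readouts, for the 12 genes of smallest p over the 4 libraries, and for up to 10 genes whose groups did not overlap. From each other list, up to 4 genes of smallest p among those that passed are named.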

Additional observations from a re-analysis of the deposited data

How the results depend on the processing

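Over the 4 libraries, the 6 higher and 6 lower genes became 7 and 6 in DESeq2 and with a minimum of 10 counts in every library, 6 and 6 with other size factors, and 5 and 4 with the length offset, which was chosen after seeing the data. Over all 6 libraries they became 0 and 0, all genes changed went from 2989 to 0, and CIRBP was at -1.07 (adjusted p = 0.103, edgeR). With limma on log2(TPM + 1) there were 2 higher, 3 lower and 1208 genes in all, and that scaling put the median of all genes at -0.08; without a filter on low counts there were 9 higher, 10 lower and 4615 in all. Leaving out 1 of the 4 libraries gave 0 to 14 higher, 0 to 18 lower, 64 to 7048 genes in all and -0.94 to -0.70 for CIRBP; the counts fell without NC_2 or NC_3 and grew without SiCIRBP_1 or SiCIRBP_3, and the lone library of a group was assumed to vary like the others. The 0 and 0 over 6 libraries became 4 higher in DESeq2, 8 higher and 5 lower in limma voom, 3 higher without a filter, and 2 higher (CRELD2 and SDF2L1) without SiCIRBP_2; leaving out any other library gave 0 of both. Within-group differences of libraries sharing a number were little correlated (r = -0.118, 0.006 and -0.026). This cannot decide whether such libraries were prepared as pairs, as the most discrepant ones, NC_1 and SiCIRBP_2, carry different numbers. The sources used here do not say how they were prepared. With a replicate block over the 6 libraries 0 genes of the 42 were higher and 0 lower, 1 gene passed in all, and CIRBP was at -1.14. Of the genes whose direction turned under any alternative, SEC61A1 and HERPUD1 had passed over the 4 libraries and the others had not. Against the 4-library sign, all 6 libraries gave DNAJB9 0.14, EDEM1 -0.09, EDEM3 -0.10, HSP90B1 0.04, MANF 0.32, SEC61A1 -0.07 and SELENOK 0.03. The replicate block gave EDEM1 -0.13, EDEM3 -0.14, HSP90B1 0.03, MANF 0.24, SEC61A1 -0.18 and SELENOK 0.01. The length offset gave ATF6 0.13, DNAJC10 0.15, HSPA5 0.01 and SELENOS -0.04, and limma on TPM gave PDIA3 -0.09 and SIL1 -0.18. Leaving out 1 of the 4 gave ATF6 -0.12 to 0.04, DERL3 -0.09 to 0.68, DNAJC10 -0.32 to 0.04, EDEM1 -0.04 to 0.26, FKBP14 -0.42 to 0.04, HSP90B1 -0.17 to 0.02, HSPA5 -0.22 to 0.18, MANF -0.57 to 0.23, PDIA3 -0.07 to 0.14 and SIL1 -0.05 to 0.17. Against the 6-library sign, HYOU1, at -0.00, became 0.01 in DESeq2 and with other size factors and 0.00 with a minimum of 10 counts. The length offset gave ATF6 0.10, DERL3 -0.04, DNAJC10 0.26, EDEM1 0.06, EDEM3 0.07, HYOU1 0.10, SELENOK -0.06, SELENOS -0.10 and SIL1 -0.00. Limma on TPM gave DNAJB9 -0.12, HSP90B1 -0.11, PDIA3 -0.15, SELENOK -0.16, SELENOS -0.01 and SIL1 -0.15. Limma voom gave DNAJB9 -0.46, EDEM1 0.10, EDEM3 0.15, HSPA5 0.05, SEC61A1 0.15 and SELENOK -0.14, and the block gave DNAJB9 -0.02. Leaving out 1 of the 6 gave DERL3 -0.10 to 0.27, DNAJB9 -0.49 to 0.49, EDEM1 -0.29 to 0.11, EDEM3 -0.27 to 0.11, HERPUD1 -0.40 to 0.07, HSP90B1 -0.04 to 0.12, HSPA5 -0.38 to 0.06, HYOU1 -0.11 to 0.09, MANF -0.01 to 0.60, SEC61A1 -0.29 to 0.25 and SELENOK -0.15 to 0.15. The causes were not tested. Of the 10 genes highest by TPM, 9 were also among the 10 highest by CPM. DERL3, at about 1 CPM, was the gene most limited by depth.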
